A study of Homo sapiens with 2 samples.

Results

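The mTOR complexes and their upstream regulators were described here through 10 genes: MTOR, RPTOR, RICTOR, MLST8, AKT1S1, DEPTOR, RHEB, TSC1, TSC2 and EIF4EBP1. The genes were listed by name, and every probe set that the array's annotation assigns to 1 of them alone was taken. This gave 25 probe sets out of 54613 human ones, and none was shared with another gene. Of the 10 genes, 9 had a signal above the floor of 72.4 on at least 1 array and are called measured below, among 12541 measured genes in all. The floor is the median of all human signals on these 2 arrays. Of the 25 probe sets, 18 lay above it on both arrays, 2 on 1 array and 5 on neither.

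RNA came from K562 cells, an established human leukaemia line that carries the BCR-ABL fusion. One culture had received the empty retroviral vector pMSCV (control vector) and the other the retrovirus for PML4, an isoform of the promyelocytic leukaemia protein, and the labels give G418 selection over 3 weeks for both. Neither the labels nor the design text names a clone or an uninfected culture, and only 1 array stands for each group. Values are MAS5 signal intensities from Affymetrix arrays, and every difference below is that between these 2 arrays, with no replicate error and no test.

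The kinase mTOR works in 2 complexes. In mTORC1 it is joined by RPTOR (raptor), which brings in substrates, and in mTORC2 by RICTOR, while MLST8 belongs to both. AKT1S1 (PRAS40) and DEPTOR are inhibitory subunits. The small GTPase RHEB activates mTORC1 at the lysosome, and the TSC1-TSC2 complex keeps RHEB inactive until growth factor signals release it. Active mTORC1 phosphorylates EIF4EBP1, a repressor of cap-dependent translation, and it restrains autophagy. The arrays read transcript levels, and these proteins are controlled largely by phosphorylation, which was not measured.

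Both arrays carried the transcripts of the labelled line. All 10 erythroid and K562 marker genes read by a probe set with no other gene, GATA1, TAL1 and the epsilon-globin gene HBE1 among them, lay above the floor on both. Of 7 T cell markers 3 exceeded the floor with the control vector and 2 with PML4, with CD3D at 2478.0 and 4996.3. Of 5 monocyte markers the counts were 3 and 2, with CD14 under the floor on both but LYZ at 3206.4 and 3134.6 and ITGAM at 678.5 and 742.6. Of 6 fibroblast markers the counts were 2 and 1, the brightest being COL1A1 at 394.2 and 278.6. Of 4 B cell markers 1 exceeded the floor on each array, CD79A at 205.5 and 170.7, and of 5 epithelial markers 4 did on each, the brightest being KRT18 at 8594.7 and 7878.2. The part of other cells in the mTOR values was not tested. PML was read by 10 probe sets, of which 2 were at least 2-fold higher on the PML4 array and 1 was at least 2-fold lower, so the overexpressed gene gave a mixed check of the label. These calls ran from 7.12-fold higher to 5.92-fold lower, and the array labelled PML4 is called the PML4 array throughout. Over all measured genes the median log2 difference was -0.05, and 44.7% had a higher signal on the PML4 array.

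Most of the measured mTOR genes differed by less than 2-fold between the arrays. Of the 9 measured genes, AKT1S1 alone differed by at least 2-fold, the size used for a call, and its signal was higher with PML4. Against this 1 of 9, calls upward made up 1.23% of all measured genes and calls downward 3.21%, 154 and 402 genes. Quantile normalization turned these into 196 and 281 genes and loess centring into 201 and 265, with AKT1S1 called upward in both. RNA of a whole culture does not separate fewer cells with a transcript from less of it per cell. The other 8 genes ran from 1.58-fold lower for RPTOR to 1.32-fold higher for RICTOR. Over all measured genes the median size of the difference, in either direction, was 0.26 on the log2 scale. AKT1S1, RPTOR, MTOR, EIF4EBP1 and RICTOR exceeded this size, while TSC1, RHEB, TSC2 and MLST8 did not. In sign, 3 genes were higher (AKT1S1, RICTOR and MLST8) and 6 were lower (RPTOR, MTOR, EIF4EBP1, TSC1, RHEB and TSC2), and the median over the 9 was -0.16 on the log2 scale. Each gene is represented by the brightest of its measured probe sets, judged by the mean of both log2 signals. At the level of probe sets, 8 of 20 measured ones were higher and 12 lower, and 1 was called, upward, where calls made up 1.3% of all measured probe sets upward and 3.22% downward.

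**Figure D1:**
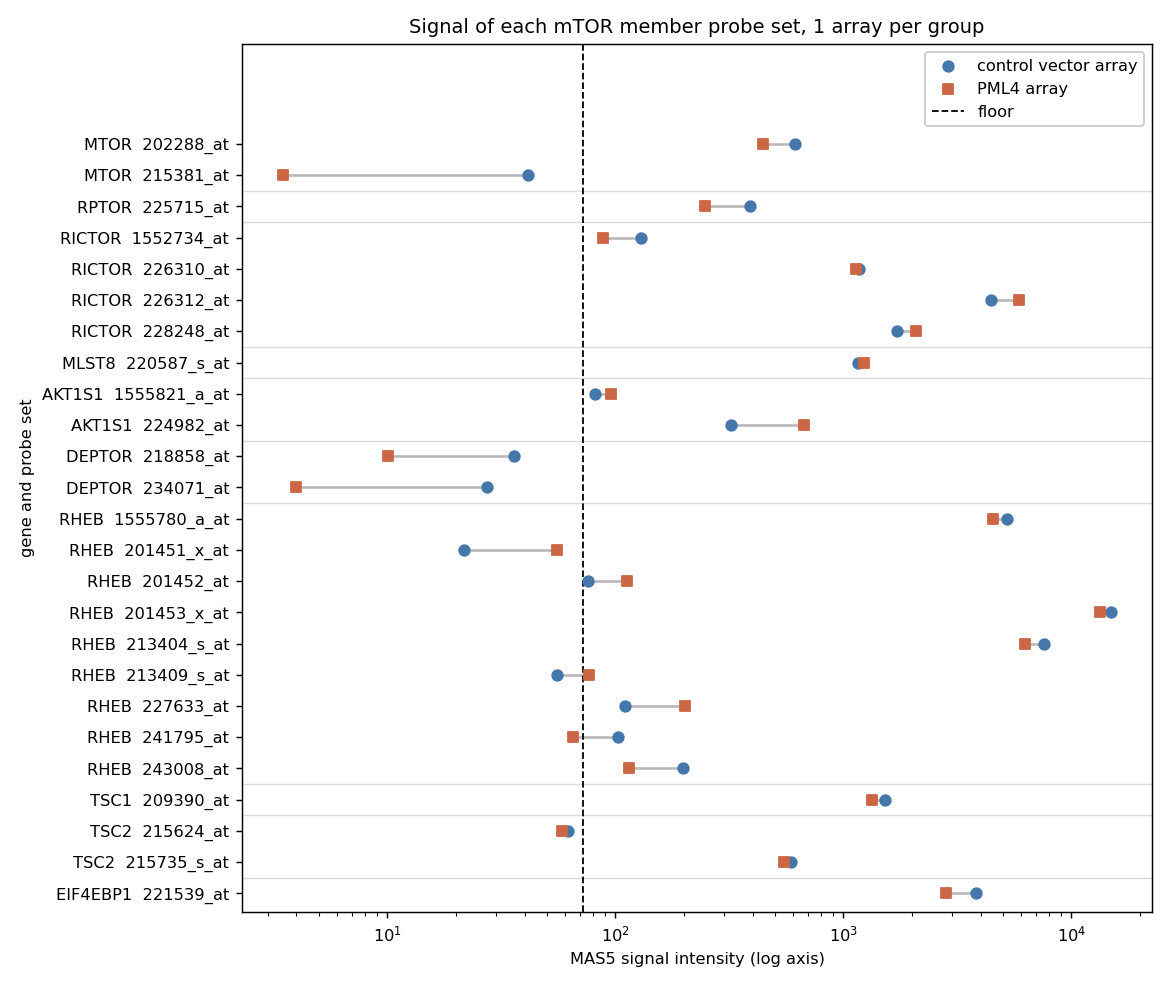
MAS5 signal intensity (log axis) of all 25 probe sets of the 10 genes, with a circle for the control vector array, a square for the PML4 array, a grey line joining both and the floor of 72.4 as a dashed line. The squares and circles lie close together for most bright probe sets, AKT1S1 224982_at moves from 320.1 to 671.4, and both DEPTOR probe sets lie left of the floor.

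MTOR encodes the kinase itself. Its probe set 202288_at read 610.9 with the control vector and 445.4 with PML4, 1.37-fold lower and a log2 difference of -0.46. Of all measured genes, 26.9% differed by more than this in either direction, so the size is a common one on this pair of arrays. The other probe set, 215381_at, read 41.5 and 3.5, under the floor on both arrays, and gives no fold.

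MLST8, the subunit that steadies the kinase domain in both complexes, was nearly level. Its single probe set 220587_s_at read 1159.1 with the control vector and 1230.5 with PML4, 1.06-fold higher.

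RPTOR, which defines mTORC1, had the lowest ratio of the 9 genes. Its single probe set 225715_at read 389.4 with the control vector and 246.8 with PML4, 1.58-fold lower or -0.66 on the log2 scale. This is short of a call, and 13.9% of measured genes differed by more. With the threshold at 1.5-fold RPTOR would be called. No other probe set of the gene was there to set beside it.

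RICTOR, which defines mTORC2, was read by 4 probe sets, all above the floor on both arrays, and they did not share a direction. The brightest, 226312_at, went from 4453.8 to 5874.9, 1.32-fold higher. Then 228248_at went from 1726.0 to 2092.1, 1.21-fold higher. The next in signal, 226310_at, was almost the same on both, at 1174.5 and 1139.1. The dimmest, 1552734_at, went the other way, from 129.8 to 88.6, 1.47-fold lower and close to the floor. Averaged over the 4 probe sets the log2 difference was 0.02, against 0.40 for the brightest, so the size of the RICTOR difference depends on which probe sets are read.

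The complex-defining subunits thus had opposite signs when each is read by its brightest probe set, -0.66 for RPTOR and 0.40 for RICTOR. The difference between them was not tested, since each group holds 1 array.

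AKT1S1 encodes PRAS40, which binds raptor and holds mTORC1 back until it is phosphorylated by AKT or by mTORC1. Its main probe set, 224982_at, read 320.1 with the control vector and 671.4 with PML4, 2.10-fold higher and 1.07 on the log2 scale. Ranked from the highest, this was the 117th of 12541 gene differences, and 3.47% of measured genes differed by more in either direction. In the same signal quartile as AKT1S1, 4.27% of genes differed by more in either direction and 1.28% were called upward. The second probe set, 1555821_a_at, was also higher but lay just above the floor, at 81.5 and 95.9, a 1.18-fold difference.

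The AKT1S1 call lies near its threshold. As the mean of both probe sets the log2 difference was 0.65. It was 0.53 when the floor was raised to the 75th percentile of signals, which lies above the control signal of this gene. Without a floor, on log2 of signal plus 32, it was 0.998. In the other 5 of 8 alternatives it stayed past 2-fold, between 1.07 and 1.14, and it was positive in all 8. Among those 5, a lower floor and leaving out _x_at and _s_at probe sets could not change the value of 1.07. Both signals already lay above the floor, and the main probe set is of neither type. The rest could change it, and it was 1.12 after median centring, 1.13 after loess centring and 1.14 after quantile normalization.

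DEPTOR, the other inhibitory subunit, was not measurable. Its probe sets read 36.0 and 10.1 (218858_at) and 27.5 and 4.0 (234071_at) on the control and PML4 arrays, all under the floor, so neither a level nor a direction is given. A transcript at this signal cannot be told from background with these files.

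**Figure D2:**
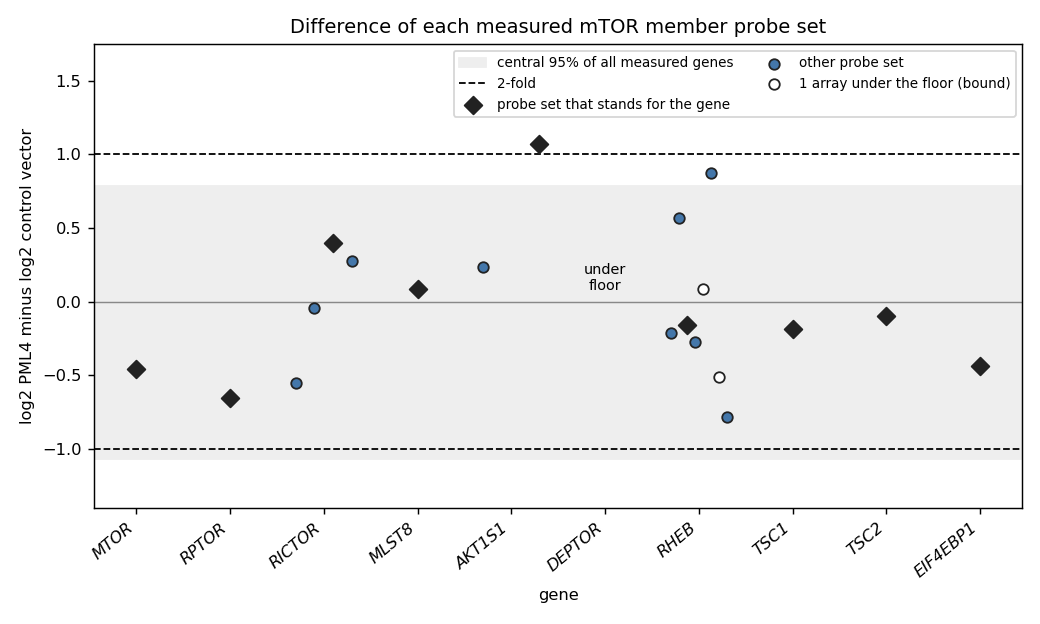
Log2 difference, PML4 minus control vector, of each of the 20 measured probe sets by gene; diamonds mark the probe set that stands for the gene, filled circles the other probe sets, open circles values with 1 array under the floor, dashed lines 2-fold, and the grey band the central 95% of all measured genes (-1.07 to 0.79). AKT1S1 at 1.07 is the only point past 2-fold, and the RHEB probe sets spread to both sides of 0.

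TSC1 and TSC2 encode hamartin and tuberin, which form the brake on RHEB, and both were close on the arrays. TSC1 (209390_at) read 1520.2 with the control vector and 1337.0 with PML4, 1.14-fold lower. TSC2 (215735_s_at) read 588.9 and 549.7, 1.07-fold lower. A second TSC2 probe set, 215624_at, reached the floor on neither array, at 62.0 and 58.3. Of measured genes, 63.0% differed by more than TSC1 and 78.8% by more than TSC2.

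RHEB, the GTPase that switches mTORC1 on, was read by 9 probe sets, which fell into bright ones that were slightly lower and dim ones without a common sign. The brightest, 201453_x_at, read 14922.1 with the control vector and 13370.2 with PML4, 1.12-fold lower. Next came 213404_s_at at 7551.3 and 6228.8, 1.21-fold lower, and 1555780_a_at at 5231.9 and 4521.3, 1.16-fold lower. These 3 share their sign and differ by little.

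The other RHEB probe sets lay near the floor. Those above it on both arrays were 227633_at, 1.83-fold higher at 110.5 and 202.0, 201452_at, 1.48-fold higher at 76.1 and 112.6, and 243008_at, 1.72-fold lower at 197.9 and 115.1. A pair crossed the floor, 241795_at at 103.3 and 65.3 and 213409_s_at at 55.5 and 76.8. The last, 201451_x_at, was under it on both, at 21.8 and 55.6. Probe sets ending in _x_at or _s_at can bind several transcripts, and without them the log2 difference of RHEB, then read by 1555780_a_at, was -0.21 against -0.16. For scale, measured pairs of probe sets for 1 gene, both above the floor on both arrays, differed by a median of 0.29 on the log2 scale over 16239 pairs.

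EIF4EBP1 encodes the translation repressor that mTORC1 phosphorylates, and it is also known as a target of the stress factor ATF4. Its single probe set 221539_at read 3812.3 with the control vector and 2808.7 with PML4, 1.36-fold lower and -0.44 on the log2 scale. This is no call. Of all measured genes, 28.2% differed by more, and of those in its own signal quartile, the brightest, 15.5% did.

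Promoter sequence was set beside the signals of the regulators. RefSeq windows on GRCh38.p14, from 250 bases before to 50 after a gene's start, were held for MTOR, RICTOR, RHEB, TSC1, TSC2 and RPTOR, with 2 windows for TSC2. They were searched on both strands for TGATGNAA, the C/EBP-ATF response element through which ATF4 acts on amino acid stress genes, and for CACGTG, the E-box core bound by MYC and, as part of a longer motif, by TFEB. Over 35116 windows of the same length, 3.62% held the first motif and 7.26% the second. Among the 7 windows of these genes, 1 held a match, and it held both. Of the pathway genes described below, KICS2 held an E-box, and DDIT4, ULK1 and SESN2 held neither motif. MLST8, AKT1S1, DEPTOR and EIF4EBP1 have no window here.

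The window with the matches is the upstream one of TSC2, chr16:2047735-2048034 on the plus strand. It is shown because the motifs overlap by 2 bases in it; capitals mark both, and the joined stretch starts at base -114 relative to the annotated start.

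TSC2 promoter: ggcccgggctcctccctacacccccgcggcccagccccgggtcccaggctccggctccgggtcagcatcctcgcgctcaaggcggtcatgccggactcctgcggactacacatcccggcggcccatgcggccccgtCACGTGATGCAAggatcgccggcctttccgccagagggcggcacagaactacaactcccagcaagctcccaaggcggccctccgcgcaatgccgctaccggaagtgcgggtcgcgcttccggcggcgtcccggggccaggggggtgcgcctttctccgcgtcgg

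The TSC2 signal with this window was 1.07-fold lower on the PML4 array, a small difference. A match in letters does not show that a factor binds there.

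A wider list of 94 pathway genes in 8 role groups showed few 2-fold differences, in shares near those of all genes. The annotation gave 85 of them at least 1 probe set with no other gene, and 81 were measured. Downward calls numbered 3 (DDIT4, KICS2 and ULK1), 3.70% of the list where 3.21% of all measured genes were called downward. No gene was called upward, where 1.23% of all measured genes were. At 1.5-fold 6 genes were higher and 6 lower. The share over all genes was not counted at that size. For scale, 13.9% of all measured genes differed by more than 1.58-fold in either direction. With a 25th percentile floor 1 of 85 genes was called upward and 5 downward. The upward one was PRKAA2, an AMPK catalytic subunit, at 1.01. Over all genes that floor gave 667 upward and 2000 downward calls among 17590. As reported, signals in the list were higher for 41 genes and lower for 40, with a median log2 difference of 0.01.

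The largest difference was in DDIT4 (REDD1), a stress-induced inhibitor that acts on mTORC1 through the TSC complex. Its single probe set 202887_s_at read 11645.4 with the control vector and 3236.0 with PML4, 3.60-fold lower. DDIT4 was past 2-fold under all 7 alternatives that gave it a value, between -1.87 and -1.80. The other floors and the mean over its single probe set could not change the value, since both signals lay above every floor used.

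KICS2, a subunit of KICSTOR, which brings the mTORC1 inhibitor GATOR1 to the lysosome, read 828.0 and 384.6, 2.15-fold lower. All 3 of its probe sets were lower, by 2.15-fold, 1.58-fold and 1.02-fold, and their mean of -0.60 is under the size of a call, as is -0.83 with a 75th percentile floor. ULK1, the kinase that starts autophagy and that mTORC1 inhibits, read 502.1 and 235.9, 2.13-fold lower in its single probe set. It fell just short of a call without a floor, at -0.995, and after quantile normalization, at -0.996. With a 75th percentile floor its difference was -0.11, since the PML4 signal is then replaced by a floor close to the control signal.

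Just short of a call, and named after their values were seen, were SESN2 and PRKAB2. SESN2, sestrin 2, which senses leucine and restrains mTORC1, read 2109.1 and 1077.0, 1.96-fold lower, and both of its probe sets were lower. PRKAB2, a regulatory subunit of the energy sensor AMPK, read 2142.5 and 1093.6, also 1.96-fold lower, and all 3 of its probe sets were lower. Both just passed 2-fold after loess centring, and PRKAB2 also after quantile normalization.

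The largest upward differences among pathway genes were smaller. MAPKAP1 (SIN1), the mTORC2 subunit that recruits AKT, went from 500.6 to 859.0, 1.72-fold higher. All 4 of its probe sets were higher, but 222426_at was nearly level at 528.2 and 533.6. Their mean log2 difference was 0.33 against 0.78 for the brightest, and without _x_at and _s_at probe sets MAPKAP1 stood at 0.01. CASTOR2, a relative of the arginine sensor CASTOR1, went from 754.0 to 1263.7, 1.68-fold higher in its single probe set. RRAGD, a Rag GTPase, went from 516.2 to 841.5, 1.63-fold higher, while its other probe set went from 355.3 to 328.6 and the mean of both was 0.30 on the log2 scale. By the mean over probe sets CASTOR2 stayed at 0.75, and PIK3R1, the regulatory subunit p85 alpha of PI3K, stood at 0.59. Many other pathway genes also lay above MAPKAP1 and RRAGD by that mean, GSK3B at 0.50 and EIF4EBP2 at 0.46 among them. The place of MAPKAP1 and RRAGD among the largest thus rests on 1 probe set each.

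**Figure D3:**
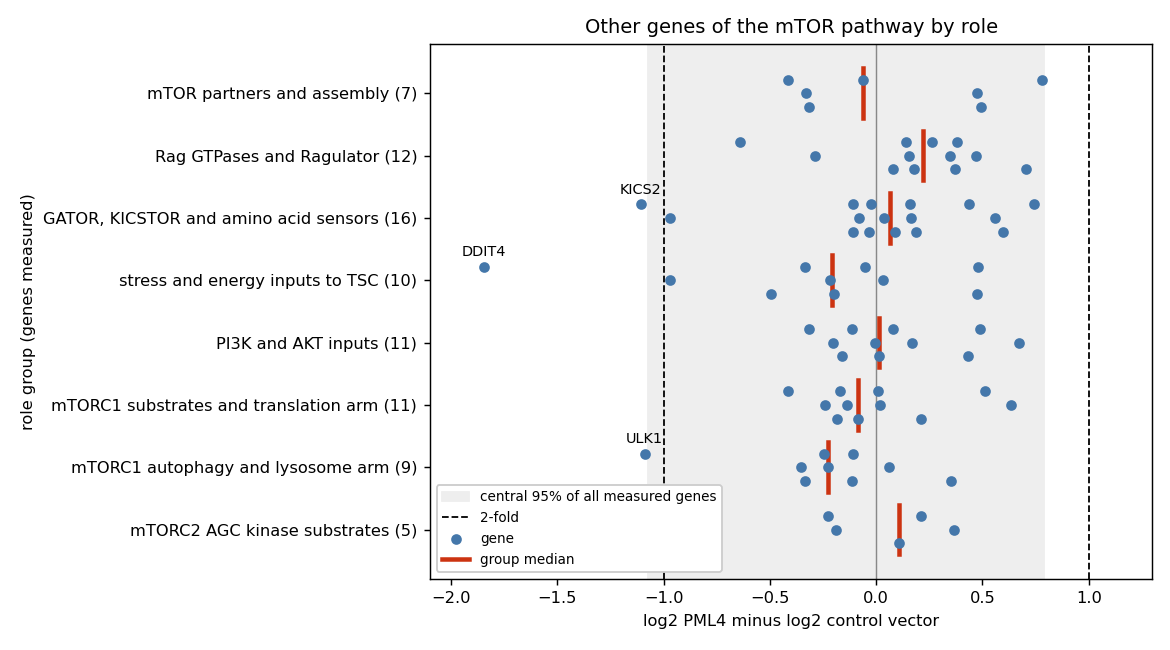
Log2 difference, PML4 minus control vector, of 81 measured pathway genes in 8 role groups; each circle is a gene, the red bar the group's median, dashed lines 2-fold and the grey band the central 95% of all measured genes (-1.07 to 0.79). DDIT4, KICS2 and ULK1 lie left of the lower 2-fold line and no gene lies right of the upper one.

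By role, the groups differed in how many members were higher. Rag GTPases and Ragulator hold mTORC1 at the lysosome when amino acids are present. Their group here also held SLC38A9, FLCN, FNIP1 and FNIP2. In this group 10 of 12 measured genes were higher with PML4, none of them by 2-fold, and the median was 0.22. The lower ones were SLC38A9 and FNIP1. LAMTOR5, the brightest of the group, read 9618.9 and 10618.8. Among GATOR, KICSTOR and the amino acid sensors 9 of 16 were higher, with a median of 0.06, and SEH1L, the brightest, read 5319.8 and 5941.9.

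Among stress and energy inputs to TSC, 7 of 10 genes were lower, with a median of -0.21, and CAB39, a partner of the kinase LKB1, read 6427.8 and 8955.4. In the autophagy and lysosome arm 7 of 9 were lower, with a median of -0.23, and RB1CC1 (FIP200), a partner of ULK1, read 4577.5 and 3588.1. Over all measured genes 55.3% were lower, with a median of -0.05, and counts of signs within 1 pair of arrays carry no error.

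The remaining groups were centred near 0. Of 11 genes of the PI3K and AKT inputs 6 were higher, with a median of 0.01. GRB10, an adaptor that mTORC1 stabilises, read 6903.5 and 6968.2 in its brightest probe set, while its other 3 probe sets were between 1.47-fold and 1.82-fold lower. Of 11 genes of the substrate and translation arm 5 were higher, with a median of -0.09, and RPS6, the ribosomal protein phosphorylated downstream of mTORC1, read 40886.1 and 36330.4. Of 7 mTOR partners and assembly factors 3 were higher, with a median of -0.06, and TBC1D7, a further subunit of the TSC complex, read 2731.2 and 3845.0, 1.41-fold higher. Of 5 mTORC2 substrates 3 were higher, with a median of 0.11, and PRKCA, protein kinase C alpha, read 4465.2 and 4807.6.

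**Figure D4:**
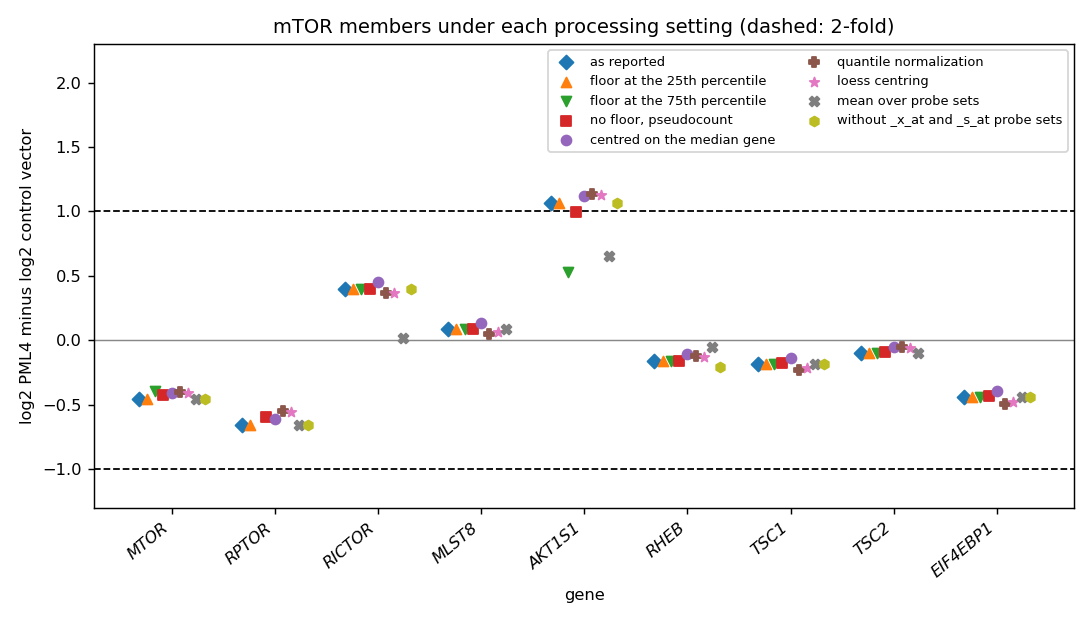
Log2 difference, PML4 minus control vector, of the 9 measured genes under the reported setting and 8 alternatives, each with its own symbol; dashed lines mark 2-fold. AKT1S1 runs from 0.53 to 1.14 across the alternatives, RICTOR drops to 0.02 with the mean over its probe sets, and every gene keeps its sign.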

How the data were processed

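Total RNA (6 µg) from 1 culture per group was labelled and hybridised, per the labels' protocols. The authors deposited MAS5 signal intensities, per the submitters' processing notes, which give no version. The values were assumed to be on a linear scale. The mean signal after trimming 2% of probe sets at each end was 499.9 for the control vector and 500.0 for PML4, so no scaling was added. The arrays were less alike at lower signals. The median signal of human probe sets was 80.6 for the control vector and 64 for PML4, and 51.9% and 48.1% lay above the floor. The part of this in the downward calls was not tested. Detection calls were not used here. The array's annotation gave 1 gene for 41091 of 54613 human probe sets, of which 41037 matched RefSeq by Entrez identifier. It names no genome build, so gene coordinates are not given.

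Computed here: signals under the floor (median, 72.4) were raised to it before log2. The brightest measured probe set stood for a gene, and a 2-fold difference was a call. These steps, in Python 3.11.15 with numpy 2.4.6, pandas 2.3.3 and statsmodels 0.14.6 (loess), were tested on simulated data. The planted changes were well past 2-fold and in probe sets well above the floor. Changes near 2-fold or in dim probe sets were not tried. With 1 array per group no test was made, and the number of arrays limits every value's precision. The members and lists were chosen with earlier results of these data known. Named pathway genes were those called, the 3 largest differences each way above the floor on both arrays, and the brightest of each role group. The settings tried besides were a floor at the 25th or 75th percentile, a pseudocount of 32 in place of a floor, median centring, quantile normalization, loess centring (span 0.4), the mean over probe sets, leaving out _x_at and _s_at probe sets, and calls at 1.5-fold and 3-fold.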

Additional observations from a re-analysis of the deposited data

How the results depend on the processing

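Of the 10 genes 1 was called as reported. No gene was called with a 75th percentile floor, without a floor, with the mean over probe sets or at 3-fold (0 in each), because AKT1S1 then fell short of the size of a call. The count was 2 with a 25th percentile floor, which added DEPTOR at -1.07 with its PML4 signal at the floor. Over all genes that floor gave 667 upward and 2000 downward calls among 17590, against 154 and 402 among 12541 as reported. The member count was also 2 at 1.5-fold, which added RPTOR. The share over all genes was not counted at that size, and 13.9% of measured genes differed by more than RPTOR. The member count stayed at 1 under the 3 scalings and without _x_at and _s_at probe sets. The median of the members ran from -0.21 to -0.10 over 8 alternatives. Of 69 alternative values for single members 66 moved by less than 0.29, the median gap between probe sets of 1 gene, and none changed sign. The 3 that moved more were AKT1S1 (0.53 and 0.65) and RICTOR (0.02). A part of the 69 had no room to move. A 25th percentile floor changed no member that was measured as reported, nor did the mean over probe sets where 1 was measured. Leaving out _x_at and _s_at probe sets changed no gene whose brightest probe set was of neither type. RPTOR gave no value with a 75th percentile floor, and MLST8 and TSC2 none without _x_at and _s_at probe sets.

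Of the wider list 3 genes were called as reported and 6 with a 25th percentile floor (1 higher and 5 lower). The count was 1 with a 75th percentile floor, 5 after loess centring, 12 at 1.5-fold (6 higher and 6 lower) and 1 at 3-fold. Shares over all genes were not counted at 1.5-fold or 3-fold. Over all genes, calls numbered 50 upward and 63 downward of 7951 with a 75th percentile floor. After loess centring they numbered 201 and 265 of 12541. The list's median ran from -0.01 to 0.06. Over all genes the higher share of calls was 27.7% as reported. It was 35.0% after median centring, 41.1% after quantile normalization, 43.1% after loess centring and 44.2% with a 75th percentile floor. With the mean over probe sets this share was 28.3%, and without _x_at and _s_at probe sets 29.1%. It was lower than reported with a 25th percentile floor (667 upward and 2000 downward calls) and without a floor, at 22.6%. The 3 scalings shifted the median gene by no more than 0.05. Signals near the floor are the least certain, which touches DEPTOR, the dim RHEB probe sets and 1555821_a_at of AKT1S1. No paired analysis was possible because each group holds 1 array.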

Other observations

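Relatives of MTOR were looked at after the values of the members had been seen. MTOR belongs to a family of large kinases that depend on the TELO2-TTI1-TTI2 assembly factors for their stability. ATM, the DNA damage kinase, read 1755.6 with the control vector and 1482.1 with PML4, and its relative ATR read 1339.8 and 1406.8. PRKDC, the catalytic subunit of DNA-dependent protein kinase, read 8073.6 and 7641.1. TRRAP, a member without kinase activity that serves as a scaffold of histone acetyltransferase complexes, read 2407.6 and 3747.4, 1.56-fold higher, and its other probe set was 1.24-fold higher. None of these reached 2-fold in the probe set that stands for the gene. RHEBL1, the close relative of RHEB, was dim and nearly level, at 187.4 and 203.3.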
